A study of Rattus norvegicus with 11 samples.

Results

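A set of 10 genes of the circadian clock were followed in rat renal cortex: the activators Bmal1, Clock and Npas2, the repressors Per1, Per2, Per3, Nr1d1 and Nr1d2, and the outputs Dbp and Tef. Their probes were found by the RefSeq identifier that the array design gives each spot, and all 10 genes had at least 1 probe. In total, 17 of the 30367 probes on the array belonged to them, and all 17 were well above background on all 11 arrays. They stood among 28489 tested probes, whose named genes numbered 14358.

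Messenger RNA was measured on 11 single-colour oligonucleotide arrays, 1 per cortex sample of a Sprague Dawley (SD) rat. Type 1 diabetes (DM) had been induced with streptozotocin (STZ), which destroys pancreatic beta cells, and SD rats without it were the controls. After 4 weeks the rats had either a gastric bypass of the Roux-en-Y type (RYGB), which joins a small stomach pouch directly to the jejunum, or a sham operation, and the cortex was taken 4 weeks later. The 4 groups were DM+RYGB (STZ diabetes and bypass, 2 arrays), DM+Sham (STZ diabetes and sham surgery, 3 arrays), Control+RYGB (no diabetes, bypass, 3 arrays) and Control+Sham (no diabetes, sham surgery, 3 arrays), so that every rat, controls included, had been operated on. Age, sex, STZ dose, feeding and hour of collection are not stated in the labels, so group and hour of collection cannot be told apart. Nothing says that the arrays of a group came from separate rats, so p-values measure the spread between these samples, which may be technical.

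The clock of mammalian cells is a feedback loop of transcription. A pair of activators, BMAL1 with CLOCK or its relative NPAS2, binds E-box elements and turns on the Per and Cry genes, whose proteins block the pair; BMAL1 also turns on Nr1d1 and Nr1d2, whose proteins (REV-ERB alpha and beta) bind RORE elements and repress Bmal1 and Npas2. DBP and TEF, PAR bZIP factors driven through the same E-boxes, act on D-box elements of output genes, and NFIL3 opposes them there. In kidney, as in other peripheral tissues, Bmal1 and Npas2 peak at another time of day than Nr1d1, Dbp, Tef and the Per genes, so a sample taken at 1 hour holds 1 state of this cycle.

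Letters of these elements were searched in the RefSeq promoter windows of the members (build GRCr8, 250 bases before to 50 after each start), and the windows of Bmal1, Nr1d1, Per2 and Tef are shown because they held a match, which is a description and not a bound site. Capitals mark an E-box (CACGTG), an E′-box (CACGTT), a D-box (TTATGTAA or TTACGTAA) or an RORE, searched on both strands, and sequences run 5′ to 3′ on the strand of the gene.
Bmal1, chr1:176766078-176766377, plus strand, RORE from position -20: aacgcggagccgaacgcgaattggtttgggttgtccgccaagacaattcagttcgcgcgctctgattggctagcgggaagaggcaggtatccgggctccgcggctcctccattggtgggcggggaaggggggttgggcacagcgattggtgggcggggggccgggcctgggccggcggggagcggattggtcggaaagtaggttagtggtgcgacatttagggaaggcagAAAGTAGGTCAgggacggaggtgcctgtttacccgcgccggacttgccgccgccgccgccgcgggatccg
Nr1d1, chr10:84231763-84232062, minus strand, E′-box on the other strand from position -174: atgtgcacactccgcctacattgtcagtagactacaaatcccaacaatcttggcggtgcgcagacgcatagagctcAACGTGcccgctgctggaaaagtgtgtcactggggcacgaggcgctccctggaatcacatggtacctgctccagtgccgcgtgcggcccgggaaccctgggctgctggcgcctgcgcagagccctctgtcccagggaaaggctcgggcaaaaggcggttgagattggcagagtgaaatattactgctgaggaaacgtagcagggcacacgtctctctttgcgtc
Nr1d1, chr10:84229405-84229704, minus strand, start of another transcript, E-box from position -191: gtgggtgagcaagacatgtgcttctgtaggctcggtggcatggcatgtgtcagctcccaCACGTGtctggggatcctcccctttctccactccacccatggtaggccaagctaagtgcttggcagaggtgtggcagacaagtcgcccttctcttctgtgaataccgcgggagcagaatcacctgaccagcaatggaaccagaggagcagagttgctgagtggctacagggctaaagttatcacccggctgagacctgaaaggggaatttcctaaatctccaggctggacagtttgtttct
Per2, chr9:99496944-99497243, minus strand, D-box from position -192 and E′-box from position -62: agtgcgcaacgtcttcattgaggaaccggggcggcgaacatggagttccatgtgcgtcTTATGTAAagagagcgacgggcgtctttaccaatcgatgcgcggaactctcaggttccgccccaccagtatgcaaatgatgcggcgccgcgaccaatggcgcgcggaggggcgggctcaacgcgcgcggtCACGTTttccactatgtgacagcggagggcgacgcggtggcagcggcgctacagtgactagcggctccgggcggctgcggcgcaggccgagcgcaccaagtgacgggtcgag
Tef, chr7:115206577-115206876, plus strand, E-box from position -198: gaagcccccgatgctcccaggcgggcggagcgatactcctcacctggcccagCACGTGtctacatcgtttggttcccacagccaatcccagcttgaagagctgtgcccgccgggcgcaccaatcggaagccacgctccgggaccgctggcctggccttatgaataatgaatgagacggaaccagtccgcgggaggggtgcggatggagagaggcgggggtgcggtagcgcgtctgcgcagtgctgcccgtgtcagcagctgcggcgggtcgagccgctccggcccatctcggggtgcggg
All 10 members had a window, 12 windows in total, and none of these letters stood in those of Clock, Npas2, Per1, Per3, Nr1d2 and Dbp. Among all 33469 windows of the same length, 6.42% held the E-box, 4.83% the E′-box, 1.01% the D-box and 0.356% the RORE. No motif in this search overlapped another in the members' windows.

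Each level is the log2 processed signal less the array's 75th percentile, so 0 is the level of a probe brighter than 75% of spots, and 1 unit is a doubling. They can be compared between arrays for 1 probe, not between probes. That percentile lay between 1541 and 4454 signal units, 77.7% to 93.5% of probes were above background on an array, and none was saturated. The spread of the difference between DM+Sham 2 and 3 was below the noise of repeated spots (0.020 against 0.077 log2), as was that of Control+RYGB 2 and 3 (0.059 against 0.074), and each pair was counted as 1 sample, which left 9 samples. All 5 proximal tubule markers and all 3 podocyte markers were above background on every array, as renal cortex has them. The sum of a list is the log2 of its markers' summed signal, in which the brightest marker weighs most. For the podocyte markers this sum was 4.93 and 4.43 in DM+RYGB, against 3.22 to 3.43 on the 9 other arrays. For the proximal tubule markers it was 6.66 and 5.78 in DM+RYGB, 6.19 to 6.49 in DM+Sham, 7.15 to 7.56 in Control+RYGB and 6.03 to 6.52 in Control+Sham. The list for medulla and collecting duct was Slc14a2, Aqp2, Umod and Slc12a1, of which 3 had a probe. Its sum was 7.64 and 6.84 in DM+RYGB, 6.07 to 6.72 in DM+Sham, 6.46 to 6.99 in Control+RYGB and 5.51 to 6.26 in Control+Sham. For 3 leukocyte markers the sum was -0.12 and -0.03 in DM+RYGB, 0.10 to 0.14 in DM+Sham, 0.40 to 0.43 in Control+RYGB and 0.35 to 0.41 in Control+Sham. Of both these lists 2 or 3 markers were above background on each array. Of 5 heart and skeletal muscle markers, all were above background in DM+RYGB, 4 or more in DM+Sham, all in Control+RYGB and 3 or more in Control+Sham. Their sum was -0.71 and 7.43 in DM+RYGB 1 and 2, against -1.92 to -1.78 in DM+Sham, -1.74 to -0.73 in Control+RYGB and -2.54 to -2.38 in Control+Sham. The sum of 3 liver markers was 1.23 to 2.33 in DM+RYGB, -1.17 to -1.15 in DM+Sham, 3.28 to 3.57 in Control+RYGB and 0.22 to 0.83 in Control+Sham, and that of 5 urothelium markers -1.35 to -0.96, -2.21 to -2.16, -2.49 to -2.10 and 0.93 to 1.06 in the same order. Of the urothelium markers 4 or 5 were above background on each array, and all 3 liver markers on every array. The sum of 3 blood markers, all above background on every array, was 3.39 and 5.32 in DM+RYGB 1 and 2. It was 4.00 to 4.57 in DM+Sham, 4.64 to 5.07 in Control+RYGB and 3.21 to 3.49 in Control+Sham. The part of these marker levels in the clock results was not tested.

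Among the activators, Bmal1 mRNA differed most between groups. Bmal1, the partner shared by CLOCK and NPAS2, had levels of -4.04 and -3.70 in DM+RYGB, -0.97, -0.93 and -0.93 in DM+Sham, 0.34, 0.37 and 0.37 in Control+RYGB, and 0.41, 0.26 and 0.24 in Control+Sham. Both DM+RYGB arrays lay below all DM+Sham arrays, these lay below all arrays without diabetes, and the Control groups overlapped. A second Bmal1 probe gave the same order, with -5.29 and -5.54 in DM+RYGB, -3.15, -3.32 and -3.27 in DM+Sham, -1.44, -1.55 and -1.52 in Control+RYGB, and -1.51, -1.56 and -1.75 in Control+Sham.

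Npas2, which can stand in for Clock, followed Bmal1, with -5.16 and -4.59 in DM+RYGB, -3.58, -3.63 and -3.61 in DM+Sham, -1.58, -1.68 and -1.72 in Control+RYGB, and -1.85, -1.87 and -1.99 in Control+Sham. No group overlapped another, although Control+RYGB and Control+Sham differed by only 0.26 ± 0.17 (SE). A dimmer Npas2 probe did not show this: it read -4.14 and -3.78 in DM+RYGB, -5.23, -4.97 and -5.03 in DM+Sham, -5.14, -4.08 and -4.83 in Control+RYGB, and -4.77, -4.55 and -5.51 in Control+Sham, with the DM+RYGB arrays among the highest. Clock itself differed little: its levels were -2.37 and -2.54 in DM+RYGB, -1.97, -1.95 and -1.94 in DM+Sham, -1.95, -1.96 and -2.0 in Control+RYGB, and -1.79, -1.61 and -1.98 in Control+Sham. Only the DM+RYGB arrays stood apart for Clock, below all others, and its second probe, at -2.52 and -2.63 there against -2.13 to -1.88 on the other arrays, did the same.

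**Figure D1:**
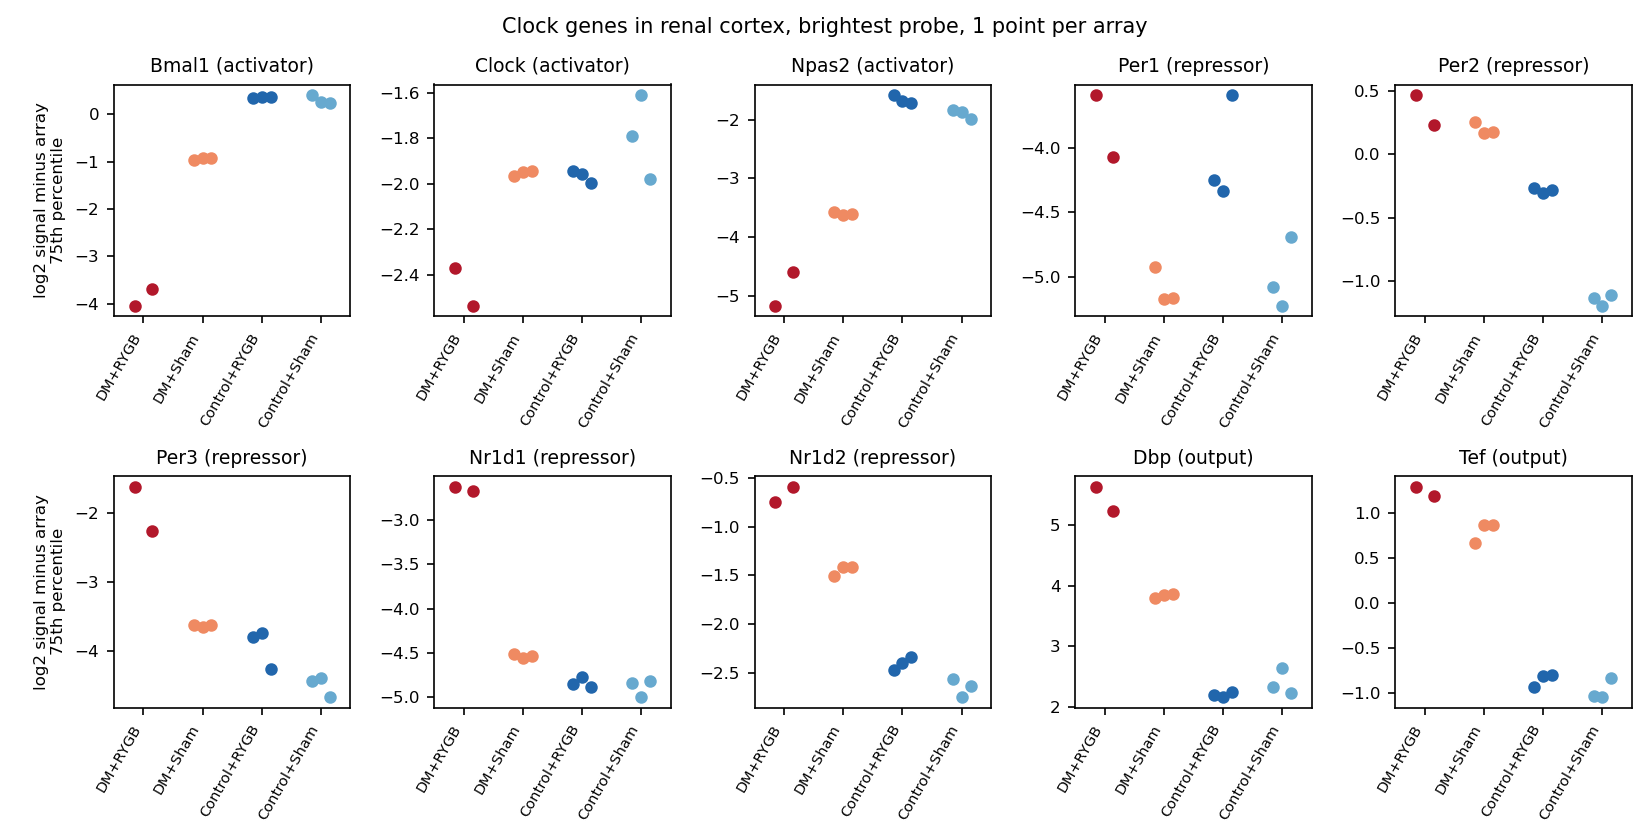
Level of each of the 10 clock genes on every array, as log2 signal minus the array's 75th percentile (y axis), in the 4 groups (x axis), 1 point per array, by the brightest probe of each gene. Bmal1 and Npas2 are lowest in DM+RYGB and next lowest in DM+Sham, while Nr1d1, Nr1d2, Dbp and Tef are highest in DM+RYGB.

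Of the repressors, Nr1d1, Nr1d2 and Per3 stood above all other arrays in DM+RYGB, while Per2 in DM+RYGB overlapped with DM+Sham and Per1 with Control+RYGB. The share of all probes whose arrays separate in this way was not computed, for these or the other members. Nr1d1, whose protein represses Bmal1 and whose promoter windows hold an E-box and an E′-box, had levels of -2.62 and -2.67 in DM+RYGB, -4.51, -4.56 and -4.53 in DM+Sham, -4.85, -4.77 and -4.88 in Control+RYGB, and -4.84, -5.00 and -4.81 in Control+Sham. Its DM+RYGB arrays stood clear of all others, DM+Sham lay just above both Control groups, and the Control groups overlapped. Nr1d2, its paralogue, had -0.75 and -0.59 in DM+RYGB, -1.51, -1.41 and -1.42 in DM+Sham, -2.47, -2.40 and -2.34 in Control+RYGB, and -2.56, -2.75 and -2.64 in Control+Sham. No group overlapped another for Nr1d2, but the Control groups differed by 0.23 ± 0.11 (SE), which did not pass the test.

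Per2, a core repressor of the CLOCK and BMAL1 pair, was measured by 10 spots per array. It read 0.47 and 0.24 in DM+RYGB, 0.26, 0.17 and 0.18 in DM+Sham, -0.27, -0.30 and -0.28 in Control+RYGB, and -1.13, -1.19 and -1.11 in Control+Sham. The diabetic groups overlapped and the Control groups did not, and Per2 was the only member whose Control groups differed by the test. Per3, a Period gene of lesser weight in the loop of mice, had -1.62 and -2.26 in DM+RYGB, -3.62, -3.64 and -3.62 in DM+Sham, -3.79, -3.74 and -4.26 in Control+RYGB, and -4.43, -4.39 and -4.67 in Control+Sham. DM+RYGB stood above the rest, the other groups lay in that order without overlap, and on this probe neither DM+Sham nor Control+RYGB differed from Control+Sham by the test. Per1, which light and hormones induce besides the clock, was dim, with -3.59 and -4.07 in DM+RYGB, -4.92, -5.17 and -5.16 in DM+Sham, -4.25, -4.33 and -3.59 in Control+RYGB, and -5.08, -5.22 and -4.69 in Control+Sham. Its RYGB arrays all lay above its Sham arrays, and within each kind of surgery the groups overlapped.

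The outputs were highest in DM+RYGB as well. Dbp, a transcription factor with one of the strongest daily rhythms in liver and kidney, had levels of 5.63 and 5.23 in DM+RYGB, 3.79, 3.84 and 3.87 in DM+Sham, 2.20, 2.16 and 2.25 in Control+RYGB, and 2.33, 2.65 and 2.24 in Control+Sham. Its groups ranked as those of Bmal1 turned over: DM+RYGB above DM+Sham, DM+Sham above both Control groups, and the Control groups overlapping. Tef, a PAR bZIP relative of Dbp with an E-box in its window, was measured by 10 spots and had 1.30 and 1.19 in DM+RYGB, 0.67, 0.88 and 0.87 in DM+Sham, -0.93, -0.81 and -0.80 in Control+RYGB, and -1.03, -1.05 and -0.83 in Control+Sham. For Tef the wide gap lay between the diabetic and the Control groups, and the Control groups overlapped.

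Diabetes among sham-operated rats came with less mRNA of 2 of the 3 activators and more of 2 of the 5 repressors and of both outputs. Bmal1 fell in DM+Sham, 2.38-fold below Control+Sham (log2 change -1.25, SE 0.13, limma adjusted p 0.00174), and Npas2 fell 3.24-fold (-1.70, SE 0.17, adjusted p 0.00159). Tef rose 3.34-fold (1.74, SE 0.12, adjusted p 0.000431), Dbp 2.67-fold (1.42, SE 0.17, adjusted p 0.00306), Per2 2.57-fold (1.36, SE 0.11, adjusted p 0.000652) and Nr1d2 2.28-fold (1.19, SE 0.11, adjusted p 0.00112). In total 4 of the 10 members rose and 2 fell, where 7.09% of all tested probes were called higher and 6.53% lower (13.6% in either direction). A gene counts as called where the adjusted p of its brightest probe is under 0.05 in the same direction with 3 scalings of the arrays: 75th percentile, median and quantile. Not called were Clock (-0.16, SE 0.13), Per1 (-0.05, SE 0.22), Nr1d1 (0.36, SE 0.10, limma adjusted p 0.054) and Per3 (0.87, SE 0.20, adjusted p 0.0307, but 0.0597 with quantile scaling). Both other Per3 probes were called higher, at 1.30 and 1.72. The median change was -1.25 over the 3 activators, 0.87 over the 5 repressors, 1.58 over the 2 outputs and 0.03 over all probes.

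On each of 2 days 1 array of each group was scanned. The differences within a day were -1.23 and -1.17 for Bmal1, -1.71 and -1.64 for Npas2, 1.45 and 1.28 for Per2, 1.24 and 1.23 for Nr1d2, 1.15 and 1.60 for Dbp, and 1.72 and 1.70 for Tef. With normexp background correction the calls of Bmal1, Npas2 and Nr1d2 were lost. That of Npas2 was also lost with the mean of its probes (-0.93, limma adjusted p 0.0309), and the dim probe gave -0.17 (0.765). Cortex is a mixture of cells, and in bulk RNA fewer cells of a type and less RNA per cell cannot be told apart.

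Bypass in diabetic rats came with a further step of the same sign in Bmal1, Npas2, Nr1d2 and Dbp. Bmal1 fell 7.59-fold in DM+RYGB relative to DM+Sham (log2 change -2.92, SE 0.14, limma adjusted p 0.000134), Npas2 fell 2.43-fold (-1.28, SE 0.19, adjusted p 0.00267) and Clock fell 1.41-fold (-0.50, SE 0.14, adjusted p 0.0266). Nr1d1 rose 3.68-fold (1.88, SE 0.11, adjusted p 0.000237), Per3 3.21-fold (1.68, SE 0.22, adjusted p 0.00191), Dbp 3.05-fold (1.61, SE 0.19, adjusted p 0.00133) and Nr1d2 1.74-fold (0.80, SE 0.12, adjusted p 0.00291). Thus 4 members rose and 3 fell, against a background of 12.8% of probes called higher and 10.8% lower (23.6% in either direction). The median of all probes itself moved by 0.55 with 75th percentile scaling, 0.24 with median scaling and -0.07 with quantile scaling, so the changes of the higher members stand beside a shift of that size. With quantile scaling Dbp was at 0.79, Nr1d1 at 1.27, Bmal1 at -3.57, Npas2 at -2.11 and Clock at -0.93. The activators had a median change of -1.28 (-2.11 with quantile scaling), the repressors 1.21 (0.56) and the outputs 1.04 (0.57). The activator median is the value of the bright Npas2 probe itself. Per1 (1.21, SE 0.24, limma adjusted p 0.00735) was not called, since quantile scaling gave 0.40 and an adjusted p of 0.175. Tef (0.47, SE 0.13) did not pass with median scaling, at 0.16 and an adjusted p of 0.367, and Per2 (0.14, SE 0.12, adjusted p 0.347) was -0.18 with that scaling. The dim Npas2 probe differed by 1.15, opposite to the bright one, and was not called, and with the mean of both probes the call of Npas2 was lost (-0.06, limma adjusted p 0.832).

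Leaving out DM+RYGB 2, the array with the high muscle markers, leaves 1 array in that group, which gives no spread of its own. Bmal1 was then at -3.10, Npas2 at -1.56, Nr1d1 at 1.90, Per3 at 2.01, Dbp at 1.81 and Per1 at 1.45. Clock (-0.41) and Nr1d2 (0.72) did not keep their calls. The call of Clock was also lost without Control+Sham 1, DM+Sham 1, Control+RYGB 1 or either averaged pair, at -0.51 to -0.49, and that of Nr1d2 without DM+Sham 1 or the DM+Sham pair, at up to 0.84. On the 1 scan day that held both groups the difference was -3.12 for Bmal1, -1.56 for Npas2, 1.91 for Nr1d1 and 1.77 for Dbp. Normexp correction kept 2 of the 7 calls, those of Per3 and Nr1d1, with Bmal1 at -1.51 (limma adjusted p 0.0547) and Npas2 turned to 0.51 (0.462). The scan day as a block, fitted on the 11 separate arrays, kept 4, losing Clock, Nr1d2 and Dbp. A fit on these groups alone made 3 calls.

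**Figure D2:**
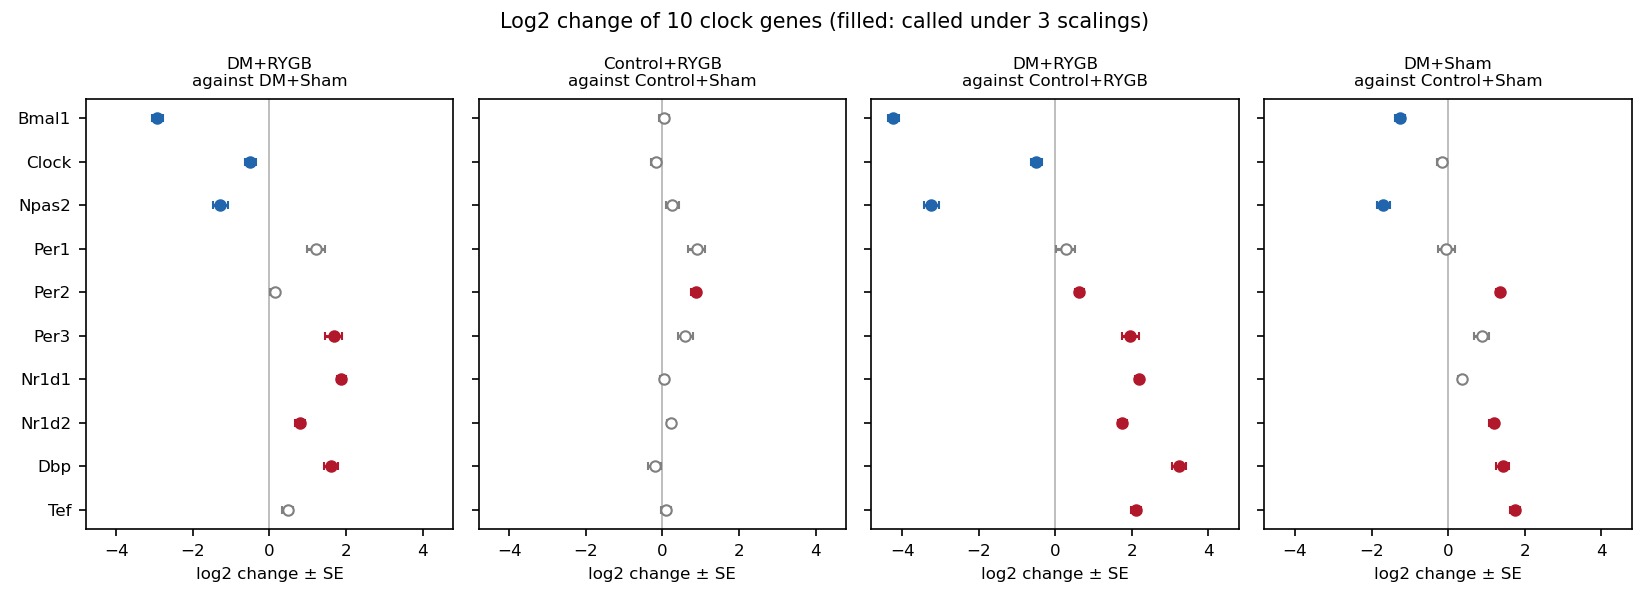
Log2 change ± SE (x axis) of the 10 clock genes (y axis) in each comparison, by the brightest probe; filled points are called under all 3 scalings. In DM+Sham against Control+Sham and in DM+RYGB against DM+Sham the activators lie left of 0 and Nr1d2 and Dbp right of it, and in Control+RYGB against Control+Sham only Per2, at 0.87, is filled.

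Bypass in rats without diabetes came with 1 call among the members. Per2 rose 1.82-fold in Control+RYGB relative to Control+Sham (log2 change 0.87, SE 0.11, limma adjusted p 0.00453), beside a background of 7.59% of probes called higher and 5.38% lower (13% in either direction). The activators and outputs had small differences with intervals on both sides of 0: 0.05 for Bmal1 (95% interval -0.26 to 0.36), -0.17 for Clock (-0.48 to 0.15), 0.26 for Npas2 (-0.15 to 0.67), -0.20 for Dbp (-0.61 to 0.21) and 0.10 for Tef (-0.19 to 0.39). Per1 was 0.89 (SE 0.22, limma adjusted p 0.0299) but 0.50 with an adjusted p of 0.111 under quantile scaling, Per3 was 0.60, Nr1d2 0.23 and Nr1d1 0.05. Nr1d1 was -0.39 with quantile scaling (adjusted p 0.0435) and -0.37 in the deposited table, while the median of all probes was 0.29, 0.16 and -0.05 under 75th percentile, median and quantile scaling. The call of Per2 was lost without Control+RYGB 1 and without the Control+RYGB 2 and 3 pair (0.85 and 0.88), with normexp correction and with the scan day as a block (0.98, adjusted p 0.0792). All Control+RYGB arrays, and no others, lay at 1 position on their slides, and no scan day held both groups. Group and position thus cannot be told apart here, nor in any other test that uses Control+RYGB.

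Among bypass-operated rats, diabetes came with the most calls among the members, and with wider differences of Bmal1, Npas2, Nr1d1, Nr1d2, Per3, Dbp and Tef than in the other comparisons, but not of Clock, Per1 and Per2. Bmal1 fell 18.7-fold in DM+RYGB relative to Control+RYGB (log2 change -4.23, SE 0.14, limma adjusted p 4.38e-05), Npas2 9.42-fold (-3.24, SE 0.19, adjusted p 0.000197) and Clock 1.41-fold (-0.49, SE 0.14, adjusted p 0.041). Dbp rose 9.35-fold (3.23, SE 0.19, adjusted p 0.000194), Nr1d1 4.56-fold (2.19, SE 0.11, adjusted p 0.000135), Tef 4.33-fold (2.12, SE 0.13, adjusted p 0.000247), Per3 3.88-fold (1.96, SE 0.22, adjusted p 0.00146), Nr1d2 3.37-fold (1.75, SE 0.12, adjusted p 0.000312) and Per2 1.55-fold (0.63, SE 0.12, adjusted p 0.00832). Thus 6 members rose and 3 fell, where 9.4% of probes were called higher and 9.81% lower (19.2% in either direction), and only Per1 (0.27, SE 0.24) was not called. The medians were -3.24 for the activators, 1.75 for the repressors, 2.67 for the outputs and 0.27 for all probes. The activator median is the value of the bright Npas2 probe itself, and the dim probe gave 0.84.

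The calls of Bmal1, Per3, Nr1d1, Nr1d2, Dbp and Tef were kept in all 27 other settings tried, and that of Npas2 in 26, although its change was -1.20 with the mean of its probes and, no longer called, -1.21 with normexp correction. Clock kept its call in 19 settings, losing it at -0.51 to -0.41 without Control+Sham 1, DM+Sham 1, Control+RYGB 1, DM+RYGB 2 or either averaged pair, and also with only the groups compared and with normexp correction, which turned it to 0.13. Per2 kept its call in 16, losing it at 0.51 to 0.64 without any Control+Sham array, DM+Sham 1, Control+RYGB 1, DM+RYGB 1 or either averaged pair, and also with only the groups compared, with the scan day as a block (0.61) and with normexp correction (0.60). Without DM+RYGB 2 the change was -4.40 for Bmal1, -3.52 for Npas2, 3.43 for Dbp and 2.21 for Nr1d1. Each of the 2 scan days that held both groups had 1 DM+RYGB array. Within these days Bmal1 differed by -4.39 and -4.07, Npas2 by -3.58 and -2.89, Dbp by 3.43 and 3.02, and Nr1d1 by 2.22 and 2.15. The slide positions of DM+RYGB and Control+RYGB did not overlap, so group and position cannot be told apart on either day. The 4 comparisons share groups pairwise, so their values are not independent.

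Whether bypass moved a gene differently with and without diabetes was tested by the interaction, (DM+RYGB minus DM+Sham) minus (Control+RYGB minus Control+Sham). It was called for 5 members, lower for 3 and higher for 2, where 8.27% of probes were lower and 7.6% higher (15.9% in either direction). Bmal1 had -2.98 (SE 0.19, limma adjusted p 0.000402) and Npas2 -1.54 (SE 0.26, adjusted p 0.00825): both fell with bypass in diabetic rats and differed little with it in the Control rats by the brightest probe. With the mean of its probes the Npas2 interaction was not called (-0.26, limma adjusted p 0.594), and its dim probe gave 1.01 (0.189). Nr1d1 had 1.83 (SE 0.15, adjusted p 0.000844) and Dbp 1.81 (SE 0.25, adjusted p 0.00475; 1.20 with quantile scaling). For Per2 it was -0.73 (SE 0.16, adjusted p 0.02), a larger difference with bypass in the Control rats than in the diabetic ones, and that call was kept in 19 of 26 other settings. It was lost at -0.77 to -0.69 without DM+Sham 1, Control+RYGB 1, Control+Sham 1 or Control+Sham 2, and without either averaged pair. Not called were Clock (-0.33), Per1 (0.32), Per3 (1.09), Nr1d2 (0.56) and Tef (0.37). Control+RYGB, alone at its slide position, enters the interaction, so group and position cannot be told apart in it. With normexp correction limma called none of the members, 6 of which had an unadjusted p under 0.05, and without DM+RYGB 2 the values were -3.15 for Bmal1, -1.82 for Npas2, 1.86 for Nr1d1 and 2.01 for Dbp.

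Set against each other within arrays, activators and outputs moved apart. Relative to the Control+Sham mean, the median of the 3 activators was -3.26 and -2.69 in DM+RYGB 1 and 2, -1.27, -1.23 and -1.23 in DM+Sham, and 0.04, 0.06 and 0.06 in Control+RYGB. The median of the 5 repressors was 1.91 and 2.06, then 0.88, 0.85 and 0.87, then 0.70, 0.67 and 0.31 in the same groups, and that of the 2 outputs 2.75 and 2.49, then 1.51, 1.64 and 1.65, then -0.08, -0.04 and 0.01. On these 3 medians the Control+Sham arrays lay between -0.10 and 0.08, a range that held the Control+RYGB activators and outputs but not its repressors. The difference of Dbp minus Bmal1, in which a constant shift of an array cancels, was 7.58 and 6.82 in DM+RYGB, 2.66, 2.67 and 2.69 in DM+Sham, -0.24, -0.31 and -0.22 in Control+RYGB, and -0.18, 0.28 and -0.10 in Control+Sham. It separated both diabetic groups from each other and from the Control groups, which overlapped in range.

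**Figure D3:**
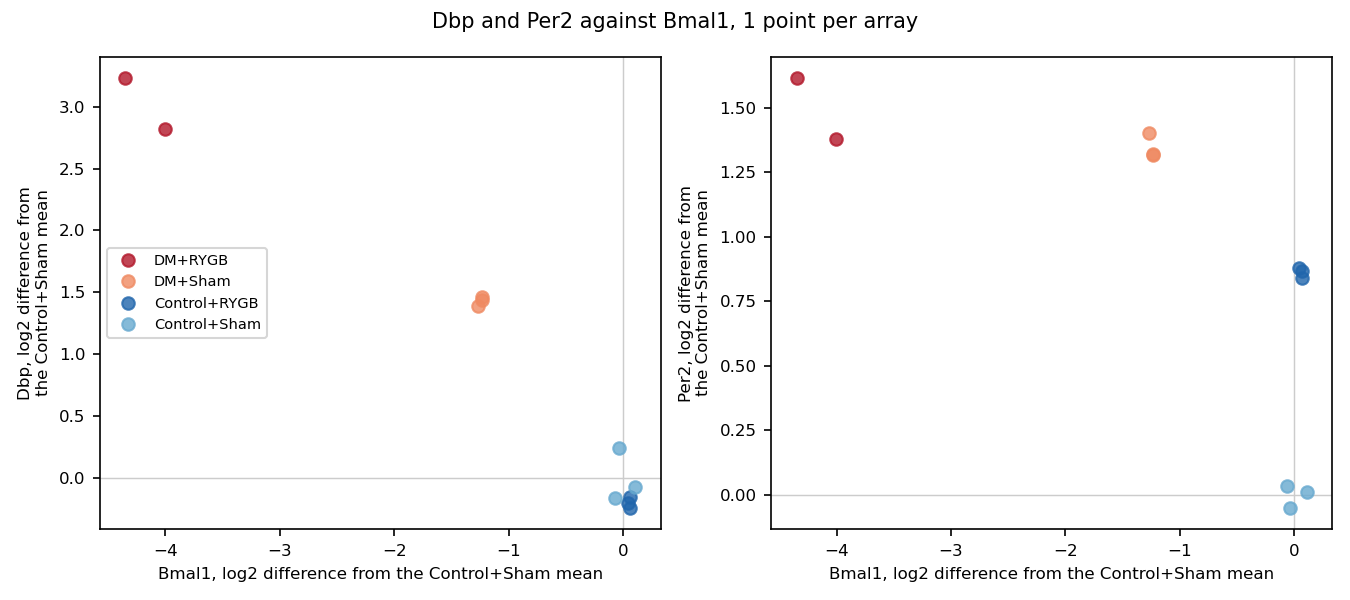
Dbp (left) and Per2 (right) against Bmal1 on each array, all as log2 difference from the Control+Sham mean, coloured by group. Dbp climbs as Bmal1 drops, with Dbp minus Bmal1 at 7.58 and 6.82 in DM+RYGB, whereas Per2 overlaps between DM+RYGB and DM+Sham and is raised in Control+RYGB with Bmal1 level.

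Over the 9 samples, Bmal1 correlated with Npas2 at 0.96 and with Clock at 0.88, and with Dbp at -0.98, Nr1d1 at -0.98, Per3 at -0.96, Nr1d2 at -0.95, Tef at -0.89, Per2 at -0.73 and Per1 at -0.57 (Pearson, a description, as the samples share groups and fall into clusters). Per1 and Per2 were thus the members least tied to Bmal1. By the root mean square difference of centred levels, the named genes nearest to Bmal1 among 14348 were Spp2 (0.27), Folh1 (0.32), C1qtnf3 (0.37), Lrrc19 (0.40) and Rarres1 (0.41). Nearest to Dbp were Nr1i3 (0.27), Ten1 (0.30), Defb105b (0.32), C11h21orf140 (0.40) and Got1l1 (0.43). All 10 correlated with their clock gene at 0.96 to 0.99 over the same 9 samples, which follows from choosing them by nearness on these samples.

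Where a gene had several probes, those of Bmal1, Clock, Per3 and Dbp had the same sign within each gene in the 3 comparisons that involve a diabetic group. In DM+RYGB relative to Control+RYGB the Bmal1 probes gave -4.23 and -3.93, the Clock probes -0.49 and -0.63, the Per3 probes 1.96, 2.37 and 3.41, and the Dbp probes 3.23, 4.09 and 4.20. For Dbp the brightest probe gave the smallest value. The Control groups were different: in Control+RYGB relative to Control+Sham the Per3 probes gave 0.60, 0.36 and -0.41, the last at -1.04 with quantile scaling (limma adjusted p 0.0148), the Clock probes -0.17 and 0.05, and the Dbp probes -0.20, 0.01 and 0.22, none of them called under all 3 scalings. The probes of Npas2 gave -3.24 and 0.84 in DM+RYGB relative to Control+RYGB, and the sequence of neither probe was used to tell which transcript it reads.

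**Figure D4:**
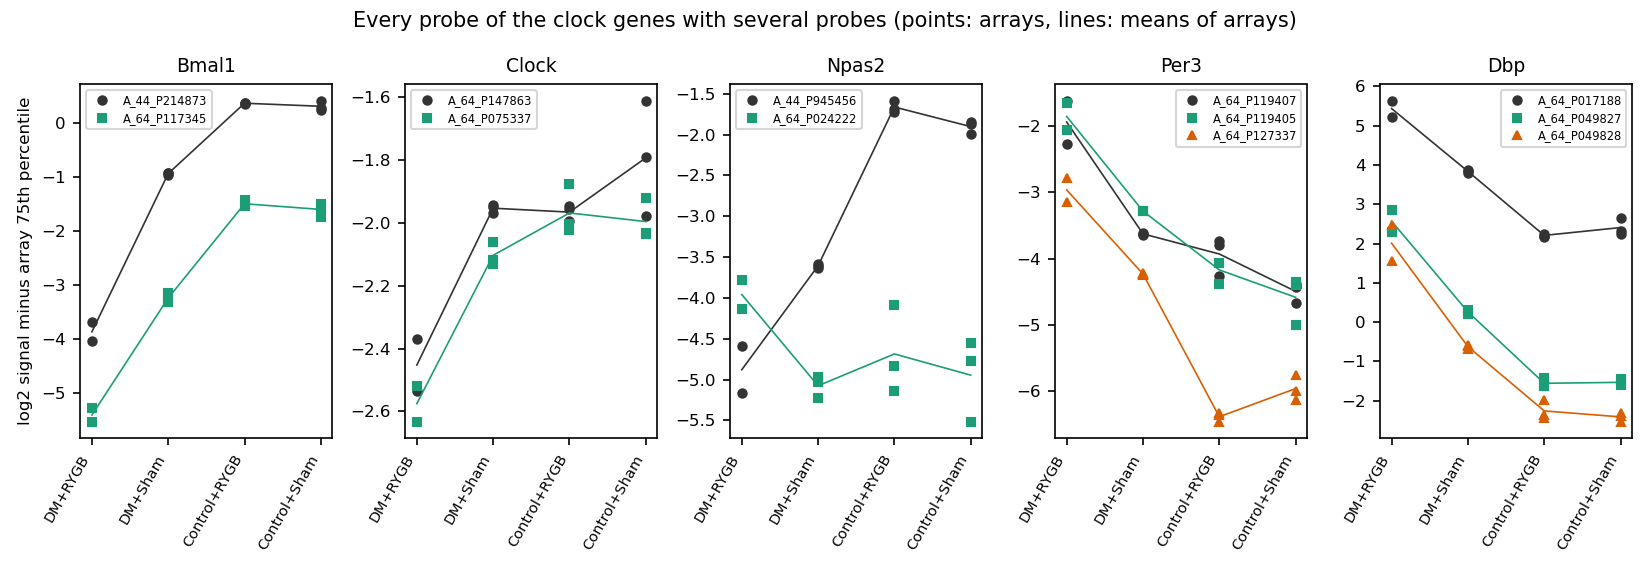
Every probe of the 5 clock genes that have several, as log2 signal minus the array's 75th percentile (y axis) in the 4 groups (x axis); points are arrays and lines join the means. All probes of Bmal1 and Clock are lowest in DM+RYGB and all of Per3 and Dbp highest there, while 1 Per3 probe lies lower in Control+RYGB than in Control+Sham (-0.41) where the other 2 lie higher. The dim Npas2 probe goes up in DM+RYGB (-4.14 and -3.78) where the bright one goes down.

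Other genes of the loop were read from a list of 14, of which 9 had a probe named here. Ciart, a repressor also called CHRONO, showed the largest change: its levels were 0.45 and 0.54 in DM+RYGB, -3.00, -3.52 and -3.53 in DM+Sham, -2.92, -2.82 and -2.89 in Control+RYGB, and -4.51, -4.54 and -4.10 in Control+Sham. The DM+RYGB arrays stood far above the rest, and Control+Sham lay below all others. On the log2 scale Ciart rose by 3.76 (SE 0.22, limma adjusted p 0.000238) in DM+RYGB against DM+Sham, 1.12 (adjusted p 0.0128) in DM+Sham against Control+Sham, 1.50 (adjusted p 0.00571) in Control+RYGB against Control+Sham, and 3.38 (adjusted p 0.000258) in DM+RYGB against Control+RYGB. Nfil3, the D-box repressor that opposes DBP and TEF, had -4.49 and -4.64 in DM+RYGB, -4.59, -4.53 and -4.53 in DM+Sham, -3.03, -3.20 and -3.16 in Control+RYGB, and -3.21, -3.30 and -3.23 in Control+Sham. It fell by 1.31 (SE 0.10, limma adjusted p 0.000671) in DM+Sham against Control+Sham and was not called in either bypass comparison. In DM+RYGB against DM+Sham it was -0.01 with 75th percentile scaling but -0.89 (adjusted p 0.00243) with quantile scaling, which also gave an interaction of -0.75 (0.0231).

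Without DM+RYGB 2 the Ciart values of DM+RYGB were 3.72 against DM+Sham and 3.34 against Control+RYGB. In DM+Sham against Control+Sham, 3 of the 9 rose (Ciart, Cry2 at 0.90 and Bhlhe40 at 0.58) and 1 fell (Nfil3), where 7.09% of all probes were called higher and 6.53% lower. Cry2 encodes a partner of the PER proteins, and Bhlhe40 a repressor that competes for E-boxes. In DM+RYGB against DM+Sham, Ciart rose and 3 fell: Cry1 (-0.67), the other main cryptochrome, Csnk1d (-0.38), a kinase of the PER proteins, and Timeless (-0.40), a replication fork protein named after the fly clock gene, beside 12.8% of probes called higher and 10.8% lower. Control+RYGB against Control+Sham had Ciart higher and Timeless lower (-0.73), beside 7.59% of probes called higher and 5.38% lower. DM+RYGB against Control+RYGB had Ciart higher and Nfil3 (-1.46) and Csnk1d (-0.67) lower, beside 9.4% of probes higher and 9.81% lower. Csnk1d had a second, dimmer probe whose levels ran from -2.28 to 0.29 without following the groups.

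Of 8 genes that cycle in many tissues, all measured, 4 rose in DM+Sham against Control+Sham and 1 fell, beside the same 7.09% and 6.53% of probes. Usp2, a deubiquitinase with a strong daily rhythm, rose by 1.08 (limma adjusted p 0.00412), Wee1, a cell cycle kinase with E-boxes in its mouse promoter, by 0.89 (0.00217), Tspan4 by 0.85 (0.00565) and Fkbp5, a glucocorticoid target, by 0.66 (0.0187), while Noct, which encodes nocturnin, fell by 1.33 (0.00154). In DM+RYGB against DM+Sham limma called none of the 8 higher under all 3 scalings. Por, the cytochrome P450 reductase, fell by 0.59 (limma adjusted p 0.0113). Of all probes 12.8% were called higher and 10.8% lower there, and counts near such shares say nothing particular to these genes. With 75th percentile scaling 3 (Tsc22d3, Fkbp5 and Noct) passed as higher, but they failed with median scaling. For Noct this was opposite in sign to its fall in DM+Sham. Against Control+RYGB, DM+RYGB had Tspan4 higher (1.28) and Usp2 higher (0.71), and Noct lower (-1.34). Beside them 9.4% of all probes were called higher and 9.81% lower. Without DM+RYGB 2, which leaves 1 array in that group, the call of Usp2 was lost (0.65). Cirbp, the cold-inducible RNA-binding protein, was then at 1.01 in DM+Sham against Control+Sham, -0.61 in DM+RYGB against DM+Sham and -1.11 in the interaction. In the same fit Tsc22d3, a glucocorticoid target, was at 1.04 in DM+RYGB against DM+Sham. Wee1 was at 0.51 and Noct at 0.59 in Control+RYGB against Control+Sham. With all arrays, Control+RYGB against Control+Sham had Fkbp5 higher (1.10), beside 7.59% of probes called higher and 5.38% lower. The interaction was called for Wee1 (-0.70) alone in this list with all arrays, beside 7.6% of probes higher and 8.27% lower. Over the 8 genes the median change was 0.76 in DM+Sham against Control+Sham (all probes 0.03), 0.17 in DM+RYGB against DM+Sham (0.55; the list's median turned to -0.15 with median scaling), 0.19 in DM+RYGB against Control+RYGB (0.27; the list's median was -0.03 with median scaling) and 0.51 in Control+RYGB against Control+Sham (0.29).

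**Figure D5:**
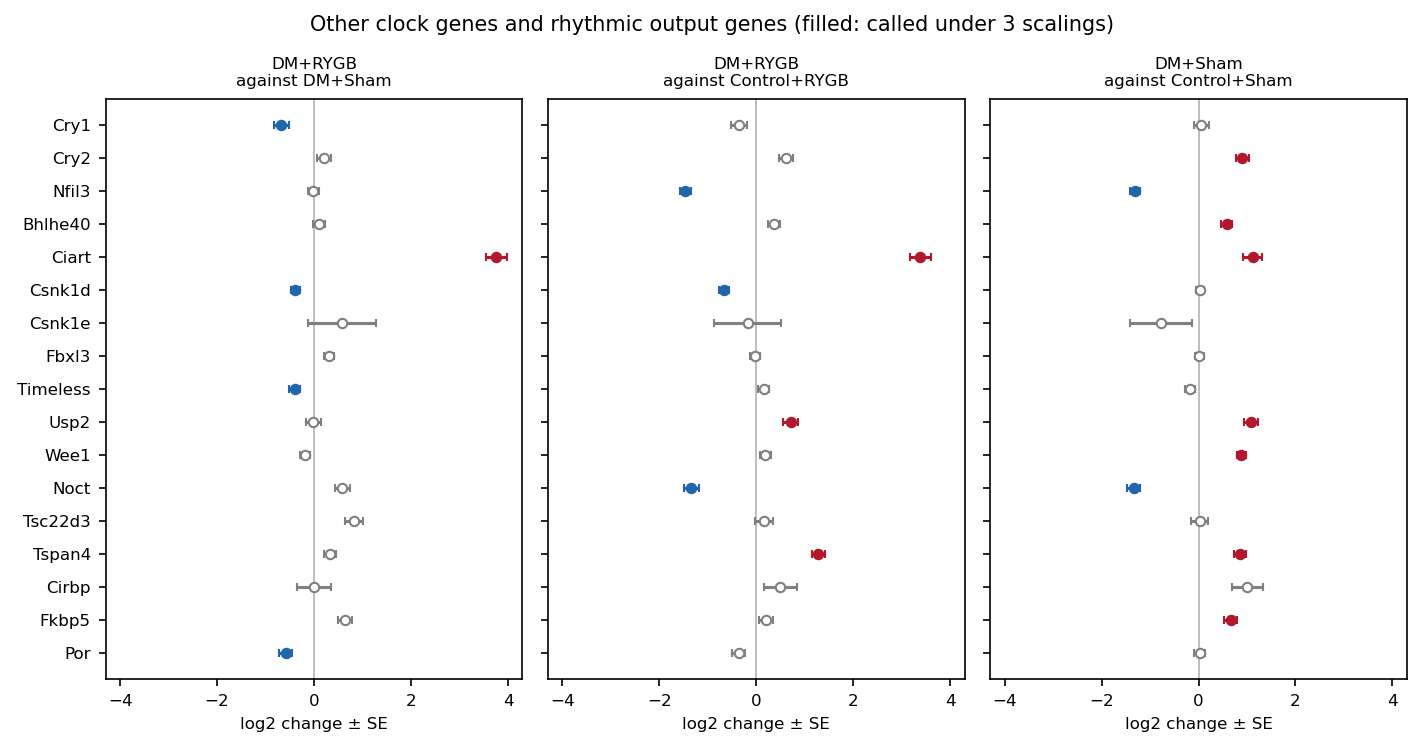
Log2 change ± SE (x axis) of 9 other clock genes and 8 rhythmic output genes (y axis) in the 3 comparisons that involve a diabetic group. Filled points are called under all 3 scalings. Ciart lies right of 0 in all 3, at 3.76 in DM+RYGB against DM+Sham, and Nfil3 lies left in both comparisons of diabetes, at -1.31 and -1.46.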

How the data were processed

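Total RNA of 11 renal cortex samples was amplified, labelled with Cy3 and hybridised to Agilent rat arrays, per the labels' protocols. The deposited scanner files hold a processed signal intensity per spot, which the authors extracted with Agilent Feature Extraction 11.0.1.1, per the file headers. A deposited table gives log2 values of the authors with a median of 7.07 in every column, which correlated with the log2 scanner values of their own array at 0.989 or more. The column of Control+Sham 3 correlated highest with Control+Sham 1, and every other column with its own array. An equal median alone does not tell which scaling the authors used, and the table served as an alternative.

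Control spots were left out, spots of 1 probe were averaged on the log2 scale, and each array's 75th percentile was subtracted. Of 30367 probes, 18005 carried 1 gene symbol through a RefSeq identifier and 12362 none. Probes that 2 or more arrays measured well above background entered a limma fit (limma 3.58.1, R 4.3.3, lmFit and eBayes, 4 groups in 1 model, 5 residual degrees of freedom), and p-values were adjusted by Benjamini-Hochberg over all 28489. All p-values are limma's. Intervals are 95% intervals of the fit, and ± after a mean change is its SE. The number of arrays limits the precision. The fit was tested on simulated data with independent noise and changes in 1 group. Such data do not bear on near-identical arrays, slide position or background correction.

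The naming rule took every member and probe, up to 4 genes with the smallest p per comparison from each of the other lists, and 5 nearest profiles each for Bmal1 and Dbp. The members and lists were chosen with earlier results of these data known. Alternatives were other scalings, background correction, probe filters and summaries, blocks for scan day, shared scan and replicate number, separate arrays, the deposited table, only the groups compared, and leaving out arrays. All blocks were fitted on the 11 separate arrays, so the averaged pairs counted as separate samples in those fits. Arrays were scanned on 5 days.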

Additional observations from a re-analysis of the deposited data

Results flagged for a closer look

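The difference between the change with bypass in diabetic rats and that in rats without diabetes passed the test of the difference itself, the interaction term of the limma fit, for 5 of the 10 members and 2 of 17 further genes, where 15.9% of all probes were called. It was -2.98 for Bmal1, whose change was -2.92 in DM+RYGB against DM+Sham and 0.05 in Control+RYGB against Control+Sham. For Npas2 it was -1.54, from -1.28 and 0.26, by its brightest probe, but -0.26 and not called with the mean of its probes, and for Per2 -0.73, from 0.14 and 0.87. For Nr1d1 it was 1.83, from 1.88 and 0.05, and for Dbp 1.81, from 1.61 and -0.20. Among the other listed genes Ciart had 2.26, from 3.76 and 1.50, and Wee1 -0.70, from -0.19 and 0.51. The DM+RYGB group rests on 2 arrays, and the summed signal of the muscle markers on the second was far above that on all others.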

How the results depend on the processing

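The number of members called stayed within 1.5 times its value in most of the 27 other settings, with these exceptions. For Control+RYGB against Control+Sham, with 1 call, there were 2 calls with each scaling alone, in the deposited table and with the shared scan as a block, and 0 with normexp correction and with the scan day as a block (by limma, 1 member had an unadjusted p under 0.05 in each). For DM+RYGB against DM+Sham, with 7, there were 2 with normexp, 3 with only the groups compared and 4 with the scan day as a block. DM+Sham against Control+Sham, with 6, had 3 with normexp, and the interaction, with 5, had 0 (6 with an unadjusted p under 0.05). Leaving out arrays gave 7 to 9 calls for DM+RYGB against Control+RYGB, 5 to 7 for DM+RYGB against DM+Sham, 6 to 7 for DM+Sham against Control+Sham, 0 to 1 for Control+RYGB against Control+Sham and 4 to 6 for the interaction. The share of all probes called is given for the main fit only, so counts of other settings have no share beside them.

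Signs turned with normexp for Clock (0.077 in DM+RYGB against DM+Sham, 0.13 against Control+RYGB), Npas2 (0.51 against DM+Sham, 0.30 for the interaction), Nfil3 (0.082 in DM+RYGB against Control+RYGB) and Timeless (0.78 in DM+RYGB against DM+Sham). Nr1d1 in Control+RYGB against Control+Sham turned to -0.39 with quantile scaling and -0.37 in the deposited table, and Csnk1d in DM+RYGB against DM+Sham to 0.22 with the mean of its probes. The cause was not tested. Of 1340 member values recomputed, 4 called and 24 uncalled ones changed sign. Of the called values of the other listed genes, 591 kept their call, 79 lost it with the same sign, and 3 lost it with the sign turned.

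Deviations from the group mean of samples with the same replicate number correlated at -0.38 to 0.45. Pairs with different numbers were not computed, and deviations within a group are tied to each other. Whether the numbers pair samples thus cannot be told from these values. With the replicate number as a block, on 11 separate arrays, 8, 7, 1, 9 and 6 members were called for DM+Sham against Control+Sham, DM+RYGB against DM+Sham, Control+RYGB against Control+Sham, DM+RYGB against Control+RYGB and the interaction. These counts too have no share of all probes beside them, so they say nothing particular to clock genes.

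The median spot signal went into normexp, because the files hold no mean. With 1 scan shared by 2 arrays, a fixed term for it replaced a random slide block, and the interaction has no fit on fewer groups.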
